A study of Mus musculus with 21 samples.

Results

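The alpha-arrestin family of the mouse was followed at the transcript level in skeletal muscle after exhaustive exercise. Of its genes, 5 were taken as members by symbol, Txnip, Arrdc1, Arrdc2, Arrdc3 and Arrdc4, and all 5 were present among the 53738 gene symbols of the deposited table. Arrdc5 was not among them. It was listed with other arrestin-fold genes, had group means between 0.033 and 0.176 TPM and was not tested. The libraries were bulk RNA-seq libraries from the quadriceps of adult male wild-type C57/Bl6 mice, 3 in each of 7 groups. Sedentary mice were the baseline control. Trained mice had voluntary access to running wheels for 12 weeks and untrained mice had not. Mice of both states were sacrificed 0 h, 6 h or 72 h after a bout of treadmill running to exhaustion. No group was trained without the bout. In differences of trained from sedentary muscle, the training and the bout therefore cannot be told apart. The labels number the libraries of a group as replicates without naming the animals, so the p-values measure the spread between these libraries. In the 0 h groups, replicate 1 of untrained and replicate 1 of trained muscle had the same value for all 53738 symbols. That library was left out of both 0 h groups, which left 19 libraries and n = 2 at 0 h. Its values are given beside the 0 h results of Txnip, Arrdc2, Arrdc3 and Arrdc4.

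Values are TPM, transcript abundances corrected for transcript length and scaled to a fixed total in each library. Library totals lay between 997304 and 997921 TPM, and between 24931 and 26588 symbols were above 0. TPM keep no read counts. The depth is therefore unknown, and intervals for counting error cannot be computed. The tissue label was checked on 6 myofibre markers, which were all expressed and summed to between 36085 and 51342 TPM per library. None of 3 satellite cell and none of 3 neutrophil markers reached a mean of 1 TPM. In bulk tissue, fewer cells of a type and less RNA per cell cannot be told apart.

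Alpha-arrestins are adaptor proteins with an arrestin fold. Most carry PPxY motifs that bind ubiquitin ligases of the NEDD4 family, and so bring these ligases to receptors and transporters at membranes. TXNIP (thioredoxin-interacting protein) also binds thioredoxin and restrains glucose uptake by promoting the internalisation of glucose transporters, and its gene is a classic target of the glucose-sensing transcription factors MondoA and ChREBP. ARRDC4 is its closest relative, ARRDC3 is an adaptor for membrane receptors, and ARRDC1 recruits TSG101 to bud vesicles from the plasma membrane.

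The 5 genes lie on 5 chromosomes (GRCm39, GENCODE). Txnip spans chr3:96465267-96469201 on the plus strand and Arrdc3 spans chr13:81031409-81044161 on the plus strand. Arrdc1 (chr2:24815286-24825338), Arrdc2 (chr8:71287770-71292364) and Arrdc4 (chr7:68386742-68398999) are on the minus strand. The 250 bases upstream of the canonical transcript start are shown for Txnip, which carries a carbohydrate response element, and for the 3 members that rose after exercise. They are written 5′ to 3′ on the strand of the gene, with motif matches in capitals, and the transcript starts after the last base.
Txnip, chr3:96465017-96465266, plus strand: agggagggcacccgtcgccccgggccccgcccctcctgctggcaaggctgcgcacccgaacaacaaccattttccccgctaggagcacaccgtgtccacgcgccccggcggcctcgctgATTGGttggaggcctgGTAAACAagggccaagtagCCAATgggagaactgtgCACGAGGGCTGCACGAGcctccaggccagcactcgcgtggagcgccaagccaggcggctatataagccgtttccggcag
Arrdc2, chr8:71292365-71292614, minus strand: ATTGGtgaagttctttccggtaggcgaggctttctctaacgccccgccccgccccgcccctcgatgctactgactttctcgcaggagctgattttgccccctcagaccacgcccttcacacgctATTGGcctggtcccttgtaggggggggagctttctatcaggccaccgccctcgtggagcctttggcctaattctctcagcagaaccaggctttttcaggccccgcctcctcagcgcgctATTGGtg
Arrdc3, chr13:81031204-81031453, plus strand: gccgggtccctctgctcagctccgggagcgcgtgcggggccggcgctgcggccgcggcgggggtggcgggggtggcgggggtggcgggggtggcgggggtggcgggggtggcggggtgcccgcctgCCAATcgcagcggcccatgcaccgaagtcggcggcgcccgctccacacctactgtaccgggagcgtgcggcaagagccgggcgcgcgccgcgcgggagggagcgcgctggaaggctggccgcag
Arrdc4, chr7:68399000-68399249, minus strand: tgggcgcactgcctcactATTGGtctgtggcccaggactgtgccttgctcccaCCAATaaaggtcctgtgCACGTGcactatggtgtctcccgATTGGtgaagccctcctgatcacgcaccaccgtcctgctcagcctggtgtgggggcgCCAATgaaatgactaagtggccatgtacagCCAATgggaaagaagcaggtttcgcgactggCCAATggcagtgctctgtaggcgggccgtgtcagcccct

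The carbohydrate response element, a pair of boxes bound by MondoA and ChREBP with their partner MLX, was searched on both strands as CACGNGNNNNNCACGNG. Among the members it was found in Txnip, as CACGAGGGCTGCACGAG at 79 to 63 bases before the start. It was rare, with matches in 11 of 21751 promoters of protein-coding genes (0.0506%). The single E-box CACGTG was held by 6.26% of promoters and occurred in Arrdc4, at 180 to 175 bases before the start. The FOXO motif TGTTTAC was held by 2.72% of promoters and occurred in Txnip on the minus strand, at 115 to 109 bases before the start. CCAAT boxes, held by 36.5% of promoters, were found 6 times in Arrdc4, 3 times in Arrdc2, 2 times in Txnip and 1 time in Arrdc3. The glucocorticoid response element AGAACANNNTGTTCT was searched in this exact form only. It matched 0 of the 21751 promoters, so its absence does not set the members apart and says nothing on inexact sites. Arrdc1 held no match to any of the 5 motifs in this window. No match overlapped another. These are matches of letters and were not tested for binding.

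**Figure D1:**
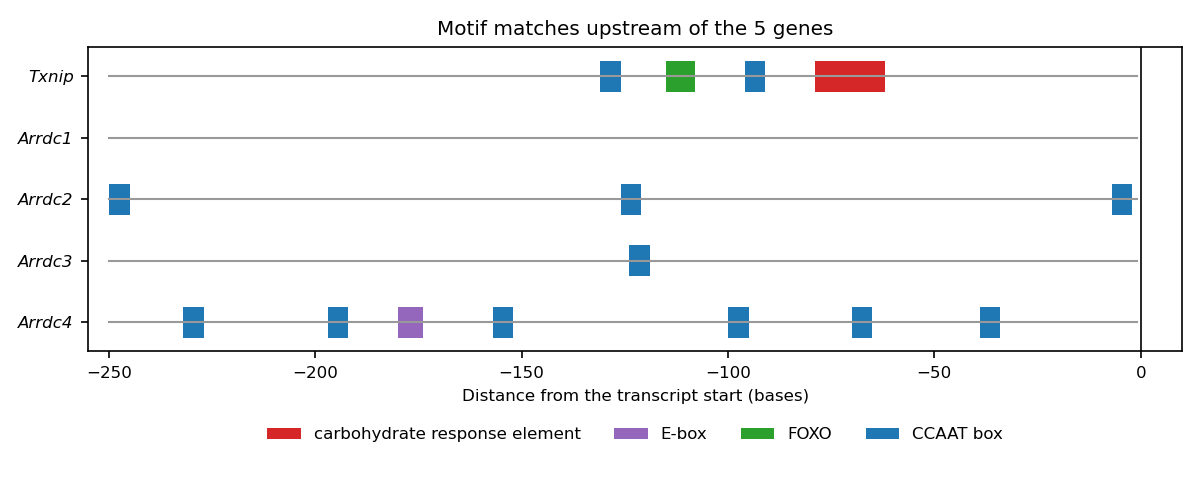
Motif matches in the 250 bases upstream of each member, with the distance to the transcript start in bases on the horizontal axis and 1 line per gene. Txnip holds the carbohydrate response element at 79 to 63 bases before the start, and Arrdc4 holds 6 CCAAT boxes and 1 E-box.

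Levels differed widely between the members. Over the 19 libraries the mean was 231 TPM for Txnip, 14.7 TPM for Arrdc2, 5.08 TPM for Arrdc3, 2.06 TPM for Arrdc4 and 1.72 TPM for Arrdc1. Txnip ranked 255 among the 11822 tested genes by mean level. The span of the group means had the opposite leader: the highest group mean exceeded the lowest 12.3-fold for Arrdc2, 3.36-fold for Arrdc3, 2.76-fold for Arrdc4, 1.93-fold for Txnip and 1.68-fold for Arrdc1. Groups accounted for 92.7% of the variance of log2 values for Arrdc2 and for 54.2% for Txnip. These shares are not corrected for the number of groups, so they do not vanish in the absence of group differences.

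**Figure D2:**
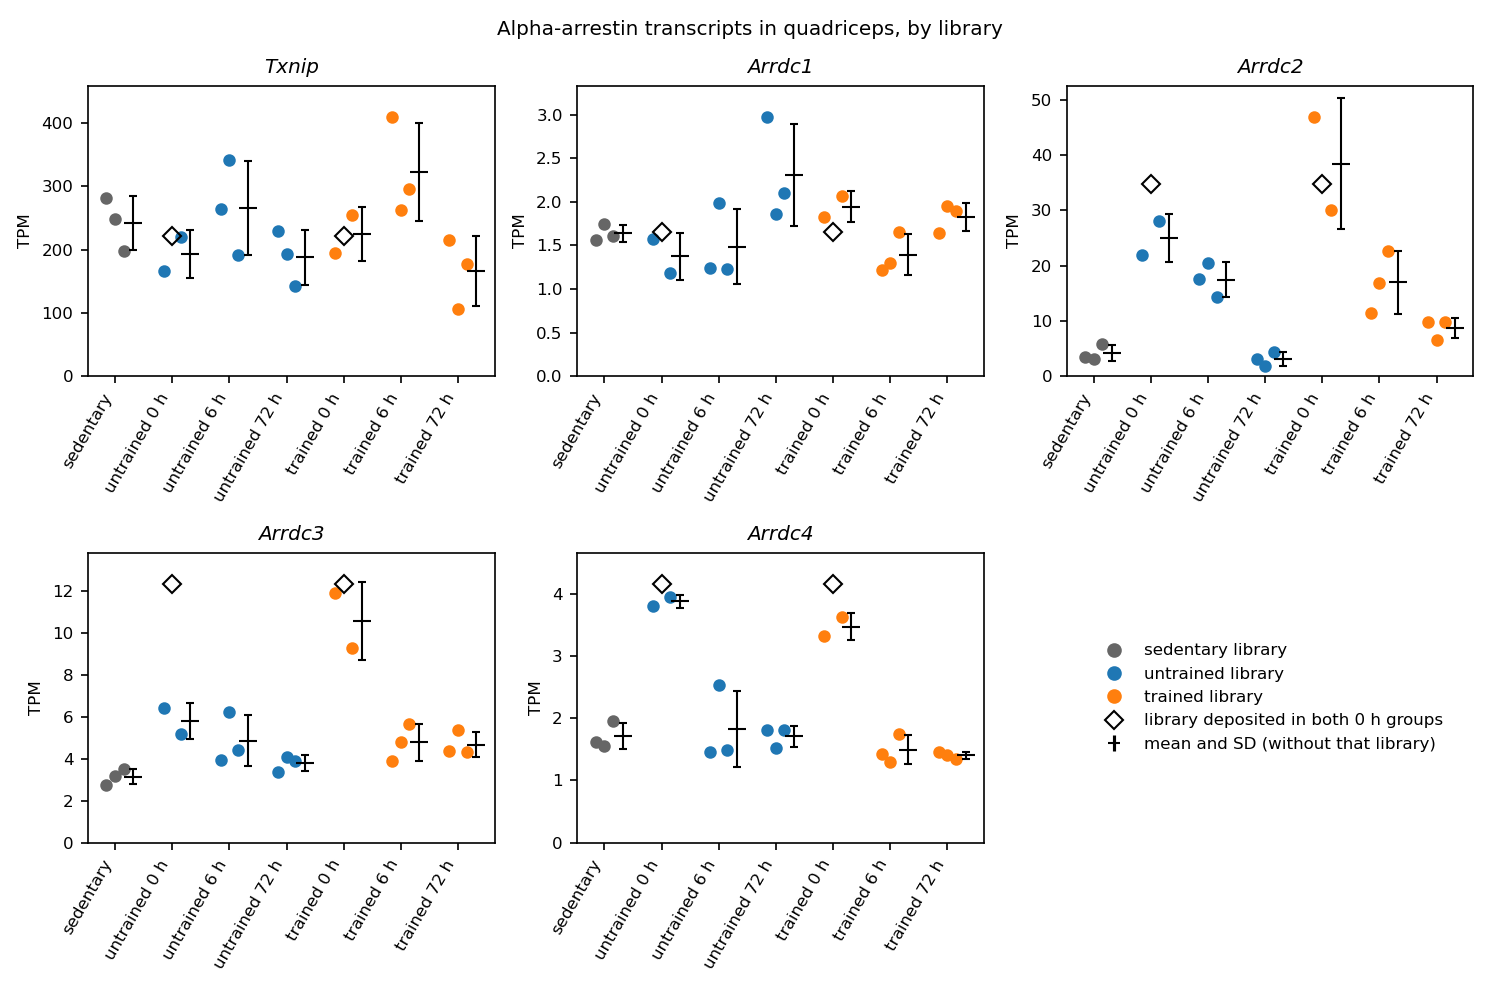
TPM of each member in every library by group, 1 panel per gene, with the group mean and SD beside the points and the library deposited in both 0 h groups as open diamonds. Arrdc2, Arrdc3 and Arrdc4 are above all sedentary libraries at 0 h, while the Txnip groups overlap with sedentary muscle throughout.

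Arrdc2 spanned the widest range of the members. In sedentary muscle it measured 3.48, 3.18 and 5.90 TPM. Untrained muscle at 0 h held 21.9 and 28.0 TPM, and trained muscle at 0 h held 46.9 and 30.1 TPM. The 6 h libraries had 17.6, 20.6 and 14.3 TPM without training and 11.4, 16.9 and 22.7 TPM with training. Every one of these 10 exercised libraries was above the highest sedentary library.

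By group mean, Arrdc2 was 5.96-fold (untrained 0 h), 9.19-fold (trained 0 h), 4.18-fold (untrained 6 h) and 4.06-fold (trained 6 h) the sedentary level. On the scale of log2(TPM + 0.5), which understates changes of low genes, it rose by 2.48 ± 0.35 (SE) in untrained muscle at 0 h (adjusted p = 0.000615, limma with Benjamini-Hochberg adjustment). The rise in the trained 0 h group was 3.07 ± 0.35 (adjusted p = 9.11e-05). The rise at 6 h was 1.97 ± 0.31 in untrained muscle (adjusted p = 0.00118) and 1.89 ± 0.31 in trained muscle (adjusted p = 0.00196). The library deposited in both 0 h groups held 34.7 TPM, and with it in both groups the 0 h values were 2.64 and 3.03.

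At 72 h, Arrdc2 in untrained muscle was at 3.21, 1.85 and 4.36 TPM, which overlapped with sedentary muscle. Trained muscle held 9.74, 6.62 and 9.77 TPM at that time, above all sedentary and all untrained 72 h libraries. The log2 difference of trained 72 h muscle was 1.00 ± 0.32 from sedentary muscle (adjusted p = 0.186) and 1.38 (95% interval 0.71 to 2.05) from untrained muscle at 72 h, with an adjusted p of 0.0510 that missed the threshold. The latter was called with a pseudocount of 0.1 (1.502, adjusted p = 0.0464) and when testing was limited to genes averaging 5 TPM or more (adjusted p = 0.0311). Over all alternatives its limma value lay between 1.10 and 1.62, and its adjusted p reached 0.234.

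Arrdc3, an adaptor for membrane receptors, was at 2.77, 3.16 and 3.51 TPM in sedentary muscle. It measured 6.40 and 5.18 TPM in untrained muscle at 0 h. In trained muscle at 0 h it reached 11.9 and 9.27 TPM. Both 0 h groups were above sedentary muscle without overlap, and among the libraries of the fit the trained group was above the untrained group.

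Arrdc3 rose by 0.79 ± 0.18 in untrained (adjusted p = 0.0259) and by 1.60 ± 0.18 in trained muscle at 0 h (adjusted p = 0.000101, limma with Benjamini-Hochberg adjustment). The untrained call was lost without sedentary replicate 1 (adjusted p = 0.0974), sedentary replicate 2 (adjusted p = 0.0736), untrained 0 h replicate 2 (0.64, adjusted p = 0.257) or untrained 0 h replicate 3 (adjusted p = 0.0617). It was also lost in a model of only the groups compared (adjusted p = 0.0790). The shared 0 h library held 12.3 TPM, more than any library of the fit, and with it in both groups the values were 1.13 (adjusted p = 0.00662) and 1.67 (adjusted p = 0.000206).

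At 6 h, Arrdc3 was at 3.95, 6.24 and 4.42 TPM without training and at 3.90, 4.81 and 5.64 TPM with it, all above the sedentary libraries. The log2 differences from sedentary muscle of 0.54 (adjusted p = 0.0559) and 0.53 (adjusted p = 0.0564) missed the thresholds. Without untrained 6 h replicate 1 the former was called (0.66, adjusted p = 0.0247), and without trained 6 h replicate 1 the latter (0.65, adjusted p = 0.0441). Over all alternatives the adjusted p from limma reached 0.224 in untrained and 0.195 in trained muscle at 6 h. At 72 h the gene was at 4.35, 5.35 and 4.32 TPM in trained muscle (0.50, adjusted p = 0.208) and at 3.35, 4.11 and 3.88 TPM in untrained muscle (0.23, adjusted p = 0.895).

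Arrdc4, the closest relative of Txnip, had a response limited in time. It measured 1.62, 1.56 and 1.95 TPM in sedentary muscle. At 0 h it was at 3.81 and 3.95 TPM without training and at 3.32 and 3.62 TPM with it. These 4 libraries were above all 15 other libraries of the fit, among which the highest value was 2.53 TPM.

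Arrdc4 rose by 0.99 ± 0.16 in untrained (adjusted p = 0.00197) and by 0.85 ± 0.16 in trained muscle at 0 h (adjusted p = 0.00602, limma with Benjamini-Hochberg adjustment). The trained call was lost without trained 0 h replicate 3 (0.79, adjusted p = 0.0607) and in a model of only the groups compared (adjusted p = 0.0607). The shared library held 4.16 TPM, and with it in both groups the values were 1.02 and 0.93. The untrained 6 h libraries had 1.46, 2.53 and 1.48 TPM and the trained ones 1.43, 1.29 and 1.75 TPM, which overlapped with sedentary muscle. At 72 h the untrained libraries had 1.81, 1.52 and 1.80 TPM and the trained ones 1.46, 1.41 and 1.34 TPM. The trained 72 h libraries were below all sedentary and all untrained 72 h libraries, with log2 differences of -0.21 from each (95% intervals -0.52 to 0.10, adjusted p = 0.589 and 0.506), and neither was called.

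Txnip, the most abundant member, was called against sedentary muscle at no time. Sedentary libraries held 282, 248 and 197 TPM. Untrained muscle measured 166 and 219.6 TPM at 0 h, 263.5, 341.5 and 192 TPM at 6 h, and 229, 192 and 143 TPM at 72 h. Trained muscle measured 194 and 255 TPM at 0 h, 409, 263 and 295 TPM at 6 h, and 215, 107 and 177.5 TPM at 72 h. Each of the 6 exercised groups overlapped with the sedentary group.

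The log2 differences of Txnip from sedentary muscle and their 95% intervals were -0.33 (-1.01 to 0.35) and -0.11 (-0.79 to 0.57) at 0 h in untrained and trained muscle. They were 0.11 (-0.50 to 0.72) and 0.40 (-0.21 to 1.01) at 6 h, and -0.38 (-0.99 to 0.23) and -0.58 (-1.19 to 0.03) at 72 h. The smallest adjusted p of the 6 was 0.412 (trained 72 h, limma with Benjamini-Hochberg adjustment). Each interval includes a change past the 1.5-fold threshold in at least 1 direction. The shared 0 h library was at 222 TPM, inside the sedentary range.

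Within trained muscle, Txnip fell by 0.98 ± 0.28 on the log2 scale from 6 h to 72 h (adjusted p = 0.0442, limma with Benjamini-Hochberg adjustment). All 3 libraries at 72 h were below all 3 at 6 h. The call was lost without trained 6 h replicate 1 (-0.80, adjusted p = 0.170), replicate 2 (adjusted p = 0.0502) or replicate 3 (adjusted p = 0.0873). It was also lost without trained 72 h replicate 2 (-0.69, adjusted p = 0.184) or replicate 3 (adjusted p = 0.0773), with no filter on low values (adjusted p = 0.109), with TPM rescaled without mitochondrial and the 10 highest genes (adjusted p = 0.0569) and in a model of only the groups compared (adjusted p = 0.134). The 6 slow fibre markers, all expressed, summed to between 349.8 and 1052 TPM in trained muscle at 6 h. At 72 h they summed to between 241 and 381 TPM, which overlapped. The 5 red blood cell markers (297 to 324 TPM at 6 h, 419 to 463 TPM at 72 h) were higher at 72 h without overlap. So were the 5 fibro-adipogenic markers (225 to 258 and 270 to 299 TPM). The part of these markers in the Txnip difference was not tested.

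Arrdc1, the adaptor that recruits TSG101, was called in no comparison. It measured 1.56, 1.75 and 1.61 TPM in sedentary muscle and reached its highest group level in untrained muscle at 72 h, with 2.97, 1.86 and 2.11 TPM. These 3 libraries were above the sedentary ones, with a log2 difference of 0.37 (95% interval 0.03 to 0.72, adjusted p = 0.811, limma with Benjamini-Hochberg adjustment). The remaining groups lay between 1.19 and 2.07 TPM. From 6 h to 72 h in untrained muscle the difference was 0.50 (adjusted p = 0.0717), and it was called without untrained 6 h replicate 2 (0.68, adjusted p = 0.0186) and with rescaled TPM (0.62, adjusted p = 0.0384). Over all alternatives its adjusted p from limma reached 0.299.

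The genes most like Arrdc1 over the libraries were haemoglobin genes, Hbb-bt (Pearson r = 0.88), Hbb-bs (0.84) and Hba-a1 (0.83). Of 5 red blood cell markers, 4 or 5 reached a mean of 1 TPM depending on the group, and their sum was 805, 410 and 462 TPM in untrained muscle at 72 h against 322, 450 and 343 TPM in sedentary muscle. Untrained 72 h replicate 1 was highest for both the markers and Arrdc1. In untrained muscle at 72 h the 7 macrophage markers also summed to more than in sedentary muscle (54.7 to 58.9 against 37.7 to 41.8 TPM) and the 6 slow fibre markers to less (330 to 473 against 504 to 946 TPM), both without overlap. On the log2 scale, Arrdc1 and the marker sum were correlated over the 19 libraries with r = 0.85, which was 0.70 over the 16 libraries outside untrained 72 h and 0.79 without the 2 libraries farthest from the median of the markers. These are descriptions over libraries that share groups, and the part of these markers in the Arrdc1 values was not tested.

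**Figure D3:**
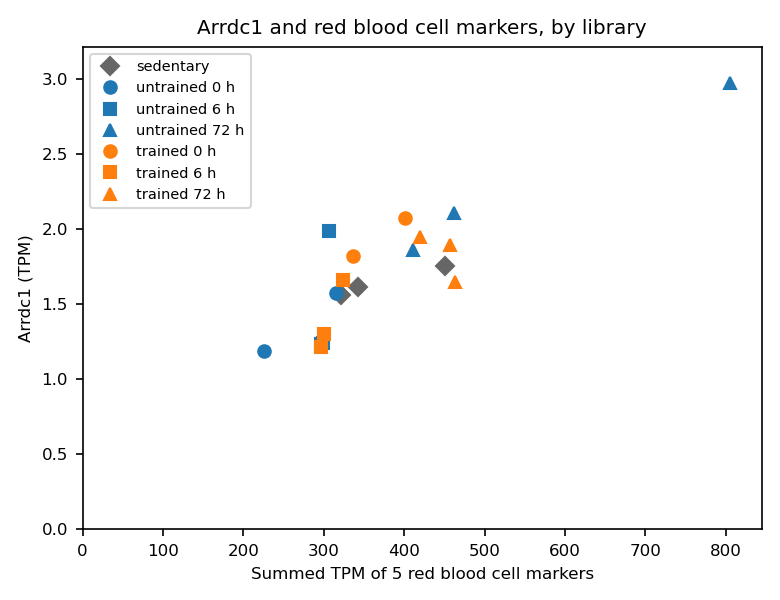
Arrdc1 in TPM against the summed TPM of 5 red blood cell markers, 1 point per library with colour and shape by group, on linear axes that start at 0. Untrained 72 h replicate 1, with 805 TPM of markers and 2.97 TPM of Arrdc1, is highest on both axes.

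In order of group means, Arrdc2 was highest in trained 0 h, followed by untrained 0 h, untrained 6 h, trained 6 h, trained 72 h, sedentary and untrained 72 h. In that order, only the untrained 6 h and trained 6 h groups, and the sedentary and untrained 72 h groups, overlapped as neighbours. Arrdc3 was highest in trained 0 h, which stood apart, and then untrained 0 h, untrained 6 h, trained 6 h and trained 72 h followed with each neighbour overlapping, above untrained 72 h and sedentary muscle. Arrdc4 had untrained 0 h and trained 0 h apart from each other and from the other groups, which overlapped as neighbours in the order. These orders leave out the shared 0 h library, which held 34.7 (Arrdc2), 12.3 (Arrdc3) and 4.16 TPM (Arrdc4). Placed in the untrained group, it would make the 0 h groups overlap for Arrdc2 and Arrdc3. Placed in the trained group, it would make them overlap for Arrdc4. Every neighbouring pair of groups overlapped for Txnip, from trained 6 h (322 ± 76.8 TPM, SD, n = 3) down to trained 72 h (167 ± 55.0 TPM, n = 3), and for Arrdc1.

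Against sedentary muscle, 3 of 5 members rose in untrained muscle at 0 h, where 2.43% of all tested genes were called higher, and the same 3 (Arrdc2, Arrdc3 and Arrdc4) rose in trained muscle at 0 h, where 3.05% were. At 6 h, 1 of 5 members, Arrdc2, rose in each state, beside 3.38% of genes called higher in untrained and 2.41% in trained muscle. At 72 h, 0 of 5 members were called in either direction, beside 0.00846% of genes in untrained and 0.245% in trained muscle. No member was called lower against sedentary muscle. The comparisons share the 3 sedentary libraries. The median log2 difference over the members was 0.79 in untrained and 0.85 in trained muscle at 0 h, where all tested genes had medians of 0.08 and 0.12. Scaling by median-of-ratios brought these medians of all genes to 0.00 and -0.00, and the 0 h rises of the 3 members were then 2.39, 0.70 and 0.91 (untrained) and 2.93, 1.47 and 0.73 (trained), in the order Arrdc2, Arrdc3 and Arrdc4, and all were called.

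Other measures moved with the exercised groups. The mitochondrial genome contributed 39.0% to 40.6% of all TPM at 0 h and 42.2% to 46.9% in the sedentary group. Myofibre markers summed to between 46051 and 51342 TPM at 0 h against 36792 to 44199 TPM, and 7 macrophage markers, of which 6 or 7 reached a mean of 1 TPM depending on the group, summed to between 47.3 and 52.6 TPM against 37.7 to 41.8 TPM. The 6 slow fibre markers were at 243 to 367 TPM in untrained and 422 to 641 TPM in trained muscle at 0 h against 504 to 946 TPM. The untrained 0 h libraries were below the sedentary ones without overlap, and the trained 0 h libraries overlapped with them. These markers were also below the sedentary libraries without overlap at 6 h (225 to 341 TPM) and 72 h (330 to 473 TPM) in untrained muscle. In trained muscle they were below them without overlap at 72 h (241 to 381 TPM) and overlapped with them at 6 h (349.8 to 1052 TPM). The 5 endothelial markers (36.9 to 46.1 TPM at 0 h against 43.2 to 52.7 TPM), the 5 fibro-adipogenic markers (224 to 294 against 233 to 273 TPM) and the 4 adipocyte markers, 3 of them expressed (6.54 to 42.2 against 7.64 to 12.7 TPM), overlapped between 0 h and sedentary muscle. At 72 h in trained muscle the adipocyte markers (17.9 to 26.0 TPM) were above the sedentary libraries. The 5 red blood cell markers summed to between 322 and 450 TPM in sedentary muscle. They were lower without overlap in untrained muscle at 0 h (225 to 315 TPM) and 6 h (296 to 306 TPM). In trained muscle at 0 h they overlapped (336 to 401 TPM). The part of these in the members' differences was not tested.

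**Figure D4:**
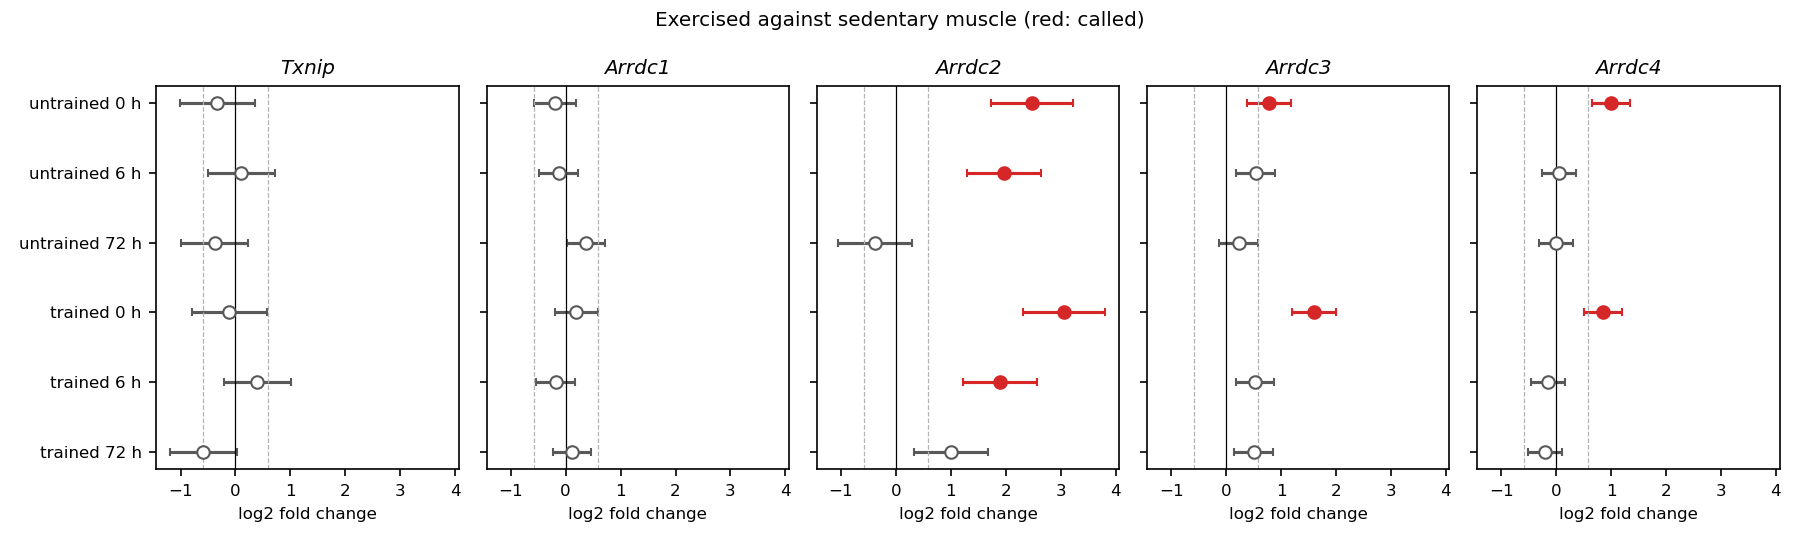
Log2 difference of each member from sedentary muscle with its 95% interval, for the 6 exercised groups, with called values in filled red and dashed lines at the fold threshold of 1.5. Arrdc2 is called at 0 h and 6 h in both states, from 1.89 to 3.07, and Arrdc3 and Arrdc4 at 0 h.

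Recovery was followed as differences between times within a training state. From 0 h to 6 h in trained muscle, 3 of 5 members fell, where 4.51% of all tested genes were called lower. Arrdc3 fell by 1.07 ± 0.18 (adjusted p = 0.00189), Arrdc4 fell by 1.00 ± 0.16 (adjusted p = 0.0013) and Arrdc2 fell by 1.17 ± 0.35 (adjusted p = 0.0363, limma with Benjamini-Hochberg adjustment). Every library of the 3 genes at 6 h was below the 0 h libraries. The Arrdc2 call was lost without trained 0 h replicate 2 (-0.86, adjusted p = 0.241) or replicate 3 (adjusted p = 0.0581), and without trained 6 h replicate 1 (adjusted p = 0.114) or replicate 2 (adjusted p = 0.0692). It was also lost with median-of-ratios scaling (-1.01, adjusted p = 0.0771), with rescaled TPM (adjusted p = 0.0926), with no filter on low values (adjusted p = 0.0763) and, like the Arrdc3 call (adjusted p = 0.0602), in a model of only the groups compared (adjusted p = 0.130). Over all tested genes the median of this comparison was -0.14, and 0.00 after median-of-ratios scaling.

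From 0 h to 6 h in untrained muscle, 1 of 5 members fell, where 2.31% of genes were called lower. This was Arrdc4, which fell by 0.94 ± 0.16 (adjusted p = 0.00243, limma with Benjamini-Hochberg adjustment). The call was lost in a model of only the groups compared (adjusted p = 0.188). Arrdc2 differed by -0.51 (95% interval -1.26 to 0.24) and Arrdc3 by -0.24 (-0.64 to 0.15) over the same step.

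From 6 h to 72 h, 1 of 5 members fell in untrained muscle, where 2.77% of genes were called lower, and 1 of 5 fell in trained muscle, where 2.48% were. In untrained muscle it was Arrdc2, which fell by 2.35 ± 0.31 (adjusted p = 0.000329, limma with Benjamini-Hochberg adjustment). The member that fell in trained muscle was Txnip. Arrdc2 in trained muscle differed by -0.89 (95% interval -1.56 to -0.22, adjusted p = 0.0967). No member was called higher in a recovery step. Txnip in trained muscle from 0 h to 6 h differed by 0.51 (95% interval -0.17 to 1.19), with all 3 libraries at 6 h above the 0 h ones.

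Between trained and untrained muscle, 0 of 5 members were called at 0 h, at 6 h or at 72 h, beside 0%, 1.93% and 0.364% of all tested genes. Counts of 0 came from limma, and at an unadjusted p below 0.05 there was 1 member at 0 h (Arrdc3), 0 at 6 h and 1 at 72 h (Arrdc2). The share of all tested genes at that unadjusted threshold was not computed, so these counts cannot be set against it. Arrdc3 at 0 h was 0.81 higher in trained muscle (95% interval 0.38 to 1.25, adjusted p = 0.758). With the shared library kept in the untrained group only this was 0.47 (adjusted p = 0.894), and with it in the trained group only it was 0.89 (adjusted p = 0.433). At 6 h the differences of Arrdc2 (-0.08, 95% interval -0.75 to 0.59), Arrdc3 (-0.01, -0.37 to 0.34) and Txnip (0.29, -0.32 to 0.90) had intervals that included 0.

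**Figure D5:**
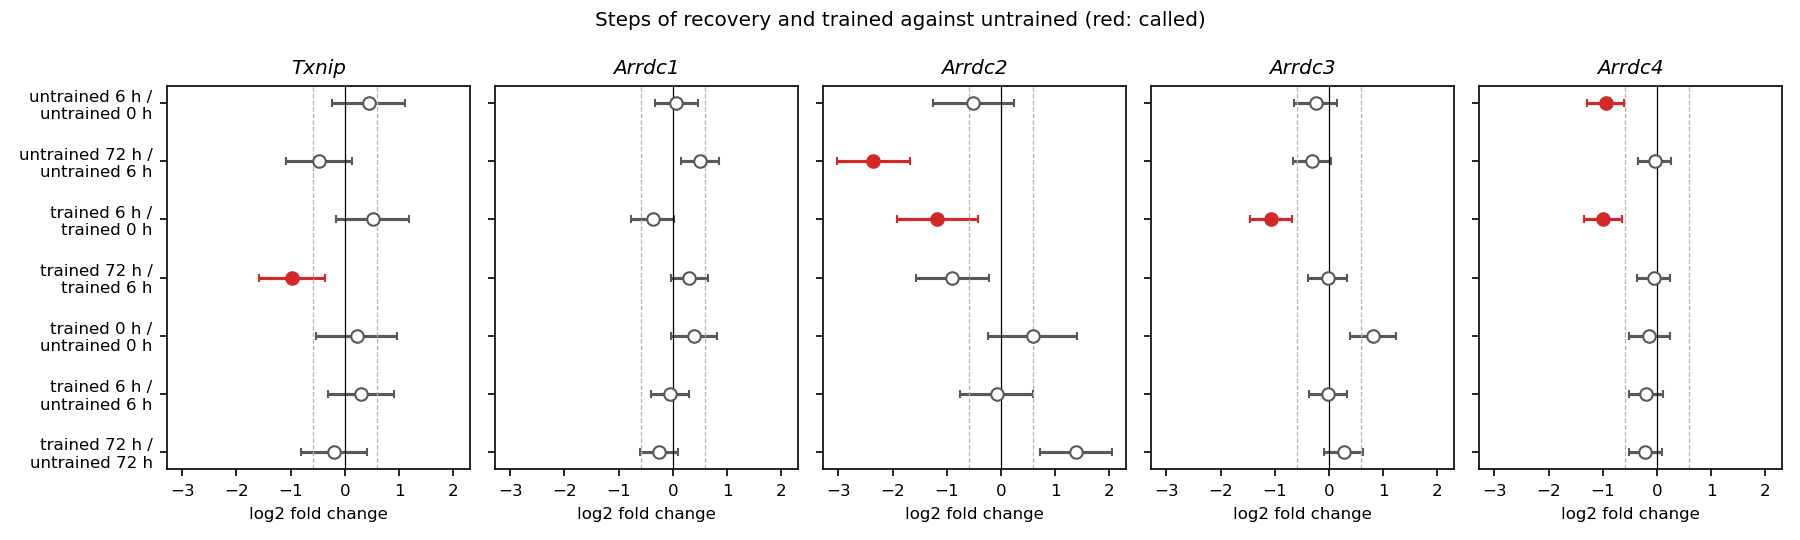
Log2 differences of each member with 95% intervals for the 4 recovery steps and the 3 comparisons of trained with untrained muscle, with called values in filled red. The called values are all below 0 and belong to recovery steps, with Arrdc2 from 6 h to 72 h in untrained muscle at -2.35.

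Genes that act with the family were taken from 5 lists. Of 4 cargo and partner genes (Slc2a1, Slc2a4, Ddit4 and Tsg101), 1 of 4 rose at 0 h, in both training states. Of all tested genes, 2.43% were called higher in untrained and 3.05% in trained muscle at 0 h. Ddit4, an inhibitor of mTORC1 signalling whose protein forms a complex with TXNIP, averaged 1.36 TPM in the sedentary group. Directly after the bout Ddit4 averaged 27.1 TPM (22.4 and 31.7, untrained) and 34.7 TPM (20.0 and 49.3, trained). It rose by 3.89 ± 0.34 and 4.12 ± 0.34 at 0 h and was still higher at 6 h, by 1.78 in untrained (adjusted p = 0.00192) and 1.72 in trained muscle (adjusted p = 0.0029, limma with Benjamini-Hochberg adjustment). Ddit4 then fell in 3 of the 4 recovery steps, by 2.10 and 2.40 from 0 h to 6 h in untrained and trained muscle and by 1.59 from 6 h to 72 h in untrained muscle. Slc2a4, the insulin-responsive glucose transporter GLUT4, Slc2a1 and Tsg101 were called in no comparison.

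Of the 5 genes of the thioredoxin system, Txnrd1, the cytosolic thioredoxin reductase, rose at 6 h, from a sedentary mean of 15.9 TPM to 34.4 TPM without training (1.07 ± 0.12, adjusted p = 9.7e-05) and to 27.2 TPM with training (0.74 ± 0.12, adjusted p = 0.00217, limma with Benjamini-Hochberg adjustment). It rose by 0.99 from 0 h to 6 h in untrained muscle and fell from 6 h to 72 h by 1.09 in untrained and 0.76 in trained muscle. Txn1 and Txn2, the thioredoxins, Txnrd2 and Txnrd3 were called in no comparison. Among 6 transcriptional regulators (Mlxip, Mlxipl, Mlx, Foxo1, Foxo3 and Nr3c1), Foxo1 rose by 0.67 ± 0.11 in untrained muscle at 6 h (adjusted p = 0.0020) and fell by 0.59 ± 0.11 from 6 h to 72 h (adjusted p = 0.00541). In trained muscle its difference from sedentary muscle was 0.50 at 0 h (adjusted p = 0.0350) and 0.50 at 6 h (adjusted p = 0.0125), both short of the fold threshold, and trained and untrained muscle at 6 h differed by -0.17 (95% interval -0.42 to 0.07, adjusted p = 0.453). Mlxip, which encodes MondoA (12.3 TPM in sedentary muscle), Mlxipl, which encodes ChREBP (18.1 TPM), and Mlx (4.30 TPM) were called in no comparison. Of the NEDD4-family ligases 7 of 9 were tested and of the other arrestin-fold genes 5 of 8, and 0 were called in each of the 13 comparisons. In any comparison and direction, at most 4.51% of all tested genes were called, so counts of 0 do not set these lists apart.

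Likeness of profiles was described as Pearson r of log2(TPM + 0.5) over the 19 libraries, which share groups and scaling, among 9679 other protein-coding genes of the nuclear genome. Arrdc4 was most like Ier2 (r = 0.96), an immediate early gene, Tamalin (0.96) and Sertad1 (0.95). Ier2 averaged 11.0 TPM (untrained) and 12.7 TPM (trained) at 0 h, and 1.62 TPM in the sedentary group. Arrdc2 was most like Noct (0.93), Map3k6 (0.92) and Cebpb (0.92), a transcription factor that had 15.9 and 21.0 TPM at 0 h against 4.42 TPM. Arrdc3 was most like Pdxk (0.89), which encodes pyridoxal kinase, Tsc22d3 (0.88), a glucocorticoid-inducible gene, and Zc3h12a (0.88).

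Txnip had lower maxima, with Angptl4 (0.74), an inhibitor of lipoprotein lipase, Perm1 (0.73), a regulator of muscle mitochondrial genes, and Mrpl21 (0.73), a mitochondrial ribosomal protein. Angptl4 had 3.72 TPM in trained muscle at 6 h and 1.04 TPM at 72 h. Among the members themselves, r was 0.79 for Arrdc2 and Arrdc3, 0.67 for Arrdc3 and Arrdc4 and 0.58 for Arrdc2 and Arrdc4. Txnip had r between -0.28 and 0.20 with the 4 others, and -0.03 with Arrdc4.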

How the data were processed

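RNA-seq libraries of quadriceps muscle were prepared with a TruSeq kit, and the authors aligned the reads to GRCm39 and quantified them, with STAR 2.7.9 and Salmon 1.5.0 named in the submitters' processing notes, and deposited TPM values per gene symbol for 21 libraries. Sequencing depth is not recoverable from TPM. The values were transformed to log2(TPM + 0.5), and 11822 genes averaging 1 TPM or more were tested, among them all 5 members. Group means were fitted with limma 3.58.1 (R 4.3.3) with a variance trend on 19 libraries, which gave 12 residual degrees of freedom, and 13 comparisons were made. Benjamini-Hochberg adjustment ran over every tested gene of a comparison. Calls needed an adjusted p under 0.05 together with a log2 difference of 0.585 or more, up or down, thresholds used in the study.

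The members, gene lists, markers and tests were chosen with earlier results of these data known. Named genes are the members, list genes called in at least 1 comparison, list genes without a call given for context, and the 3 genes most correlated with each member. Lists cover cargo and partners (of which 1 gene is not reported here), the thioredoxin system, transcriptional regulators, NEDD4-family ligases and other arrestin-fold genes. Markers cover myofibres, slow fibres, macrophages, neutrophils, endothelial, fibro-adipogenic and satellite cells, adipocytes and red blood cells. Promoters were read from GRCm39 with GENCODE starts. Alternatives changed the pseudocount (0.1 and 1), filter, scaling, variance model, samples, replicate block, fold threshold and the shared 0 h library. Python 3.11.15 was used for descriptions and figures.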

Additional observations from a re-analysis of the deposited data

Results flagged for a closer look

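The library deposited in both 0 h groups lay outside the fit, and 3 members were above every sedentary library in it. Arrdc2 was at 34.7 TPM, where the highest sedentary library had 5.90 TPM. Arrdc3 was at 12.3 TPM, where the highest sedentary library had 3.51 TPM. Arrdc4 was at 4.16 TPM, where the highest sedentary library had 1.95 TPM. The library carries both 0 h labels, so which training state these values belong to cannot be told apart. Groups of 3 or fewer libraries were not examined for single libraries that stand apart.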

How the results depend on the processing

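Of 14 called member values, 0 changed direction under any alternative that could be fitted and 8 kept the call under each of them. The number of members called in trained against untrained muscle at 72 h went from 0 to 1 with a pseudocount of 0.1 and with a mean of at least 5 TPM. It went from 1 to 0 in untrained muscle from 0 h to 6 h with a mean of at least 5 TPM, under which Arrdc1 and Arrdc4 were not tested, and with only the groups compared. It went from 1 to 2 in untrained muscle from 6 h to 72 h with rescaled TPM. In trained muscle it went from 3 to 1 from 0 h to 6 h with only the groups compared, and from 1 to 0 from 6 h to 72 h with no filter, with rescaled TPM and with only the groups compared. When each library was left out in turn, the counts ranged from 1 to 2 in untrained and in trained muscle at 6 h against sedentary, from 1 to 2 in untrained muscle from 6 h to 72 h, and from 0 to 1 in trained muscle from 6 h to 72 h. Changes in a count from 3 to 2 are not listed here. At 0 h such changes came with the lost calls of Arrdc3 in untrained and Arrdc4 in trained muscle, given above. From 0 h to 6 h in trained muscle they came with the lost Arrdc2 call. With a mean of at least 5 TPM, Arrdc4 was not tested and so left each of these counts. Leaving out a 0 h library left 1 in that group, assumed to vary like the other groups. The uncalled Txnip differences from sedentary muscle changed sign at 6 h in untrained (-0.092 to 0.32 over left-out libraries) and at 0 h in trained muscle (-0.31 to 0.087, and 0.027 with the replicate block).

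Replicate numbers did not pair the libraries: deviations of the 52 pairs with the same number correlated between -0.0875 and 0.0896. With the replicate block no count of members moved by more than 1.5 times, and 1 call was lost, that of Arrdc2 from 0 h to 6 h in trained muscle (-1.13, adjusted p = 0.0567, limma with Benjamini-Hochberg adjustment). Placing the shared library in the untrained or the trained group only was chosen after seeing the data. TPM without depth and n = 2 at 0 h limit the precision, and Arrdc1 and Arrdc4 are close to the filter of 1 TPM.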
